A study of Mus musculus with 15 samples.

Results

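Classical monocytes are the CCR2-dependent, Ly6C-high monocytes of mouse blood. A set of 8 genes, grouped here under their name, was followed through brain myeloid cells: Ly6c2, Plac8, Fn1, Vcan, Hp, Lyz2, Lyz1 and Cd177. Not all of them are particular to these monocytes, since Cd177 is best known from neutrophils and Lyz1 from Paneth cells of the gut. Each of the 8 symbols matched 1 row among 38924 genes in every library, and all 8 were among the 14967 genes with enough counts to be tested. The libraries were poly(A) RNA-seq of cells sorted by FACS from the brains of male C57BL/6J (B6) wild type mice at 12 months of age, which were fed a chow control diet (CD) or a western diet (WD). CD11b, an integrin chain carried by myeloid cells, was used with the level of the leukocyte antigen CD45 to split the cells into CD11b+CD45lo cells, the gate that holds microglia, and CD11b+CD45hi cells, the gate that holds peripheral myeloid cells. CD3e+ cells, the T cells, were gated out before that split, and Ly6C protein was stained but did not define either gate. The 15 libraries comprised 4 CD CD45hi, 4 CD CD45lo, 3 WD CD45hi and 4 WD CD45lo samples, all of the same strain and genotype. The study describes its deposited counts as those of each animal, but the labels do not tie a library to a mouse, so p-values measure the spread between these samples. Cells were gated, not purified to a single type, and in bulk samples fewer cells of a type and less RNA per cell cannot be told apart.

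Libraries held 11951412 to 17912272 expected counts, so that 3 counts correspond to 0.156 to 0.282 cpm (counts scaled to library size after TMM normalization), a floor for counting error only. The labelled cell types matched their markers in direction. All 8 tested microglia markers were called lower in CD45hi cells in CD-fed mice (0.588% of all genes) and 5 of 8 in WD-fed mice (1.17% of all genes). All 8 had no overlap between the cell types on either diet, though the share of all genes that were lower without overlap is not given here. The microglia markers still summed to 5670 to 6935 cpm in the CD45hi libraries, against 11950 to 15260 cpm in the CD45lo libraries. Among the CD45hi libraries, CD replicate 4 and WD replicate 1 stood apart from the rest on the second principal component, with scores of 93.0 and -134.7, whereas the other 5 scored 6.10 to 21.5. Calls that rest on either library are given below with and without them.

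The 8 genes encode unrelated proteins. Ly6c2 encodes a GPI-anchored surface protein that carries the Ly6C antigen. Cd177 encodes another GPI-anchored surface protein, which is best known from neutrophils, where it binds proteinase 3 and the endothelial adhesion molecule PECAM1. Plac8 encodes a small cysteine-rich protein of myeloid cells. Fn1 (fibronectin) and Vcan (versican, a proteoglycan that binds hyaluronan) are matrix proteins that monocytes secrete, and Hp (haptoglobin) is a secreted protein that captures free haemoglobin and is also stored in neutrophil granules. Lyz2 and Lyz1 encode lysozymes, enzymes that cleave bacterial cell walls. Lyz2 is used throughout monocytes, macrophages and neutrophils, whereas Lyz1 is best known from Paneth cells of the gut. Classical monocytes leave the bone marrow through CCR2, enter inflamed tissue, and convert there to macrophages or, in blood, to nonclassical monocytes that patrol the vessel wall.

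All 8 genes lie on the minus strand of build mm10 (GENCODE M21). Ly6c2 is at chr15:75108158-75111970, Plac8 at chr5:100553725-100572245, Fn1 at chr1:71585520-71653200, Vcan at chr13:89655312-89742509, Hp at chr8:109575128-109579172 and Cd177 at chr7:24743983-24760311. Lyz2 at chr10:117277331-117282321 and Lyz1 at chr10:117287797-117292868 are neighbours, 5475 bases apart. Ly6c2 has a near copy of its own, Ly6c1 at chr15:75044018-75048830, 59327 bases away and best known from endothelial cells. RSEM divides a read that fits several genes among them, so these pairs are uncertain where their transcripts are identical. Of the 75-base windows in the transcripts of Lyz1, 6.22% were also in Lyz2, and 9.46% of those of Ly6c2 were also in Ly6c1. Expected counts were more than 0.001 from a whole number in 14 of 15 libraries for Ly6c2 and in 12 of 15 for each lysozyme, which shows that reads were divided there. Cd177 and Fn1 shared 3.58% and 1.5% of their windows with other genes but had counts within 0.001 of a whole number in every library, and Plac8, Vcan and Hp shared none.

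The promoters are shown for the genes whose levels are described most closely below. RefSeq (GRCm38.p6) start sites were available for 6 of the 8 genes, with 8 promoters among them, and were not used here for Fn1 and Hp. They were searched on both strands for GAGGAA, the core of the PU box bound by PU.1, the myeloid factor encoded by Spi1. Of 32851 RefSeq promoters, 23.3% held it within the 250 bases before the start. It occurred in both Ly6c2 promoters, in 1 of the 2 Plac8 promoters and in the Cd177 promoter, and its letters were not in this window of Vcan, Lyz2 or Lyz1. A match is a string of letters and not a binding site shown by these data. The first 3 sequences below are single promoters of the 3 genes that held it, with the letters of the match in capitals, and leave out bases inside the annotated gene. The last pair is the window from 150 to 51 bases before the start of each lysozyme gene, with the bases that differ between them in capitals.
Ly6c2, chr15:75111972-75112221: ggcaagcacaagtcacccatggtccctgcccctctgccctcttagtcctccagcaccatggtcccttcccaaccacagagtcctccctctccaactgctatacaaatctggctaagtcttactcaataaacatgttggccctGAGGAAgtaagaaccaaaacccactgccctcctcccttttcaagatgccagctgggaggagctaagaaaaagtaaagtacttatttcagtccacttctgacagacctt
Plac8, chr5:100572246-100572455: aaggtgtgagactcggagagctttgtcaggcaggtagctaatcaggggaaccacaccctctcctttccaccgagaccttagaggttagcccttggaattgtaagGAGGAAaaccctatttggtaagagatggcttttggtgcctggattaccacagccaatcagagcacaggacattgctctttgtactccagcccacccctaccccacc
Cd177, chr7:24760312-24760561: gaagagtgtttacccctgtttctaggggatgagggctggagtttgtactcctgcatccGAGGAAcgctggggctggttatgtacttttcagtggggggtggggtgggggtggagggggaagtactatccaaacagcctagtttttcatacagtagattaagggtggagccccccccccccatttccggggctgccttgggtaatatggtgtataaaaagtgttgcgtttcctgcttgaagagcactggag
Lyz1, chr10:117292919-117293018: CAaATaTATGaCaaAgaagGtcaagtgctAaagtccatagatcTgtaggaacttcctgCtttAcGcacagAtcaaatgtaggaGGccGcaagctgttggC
Lyz2, chr10:117282323-117282422: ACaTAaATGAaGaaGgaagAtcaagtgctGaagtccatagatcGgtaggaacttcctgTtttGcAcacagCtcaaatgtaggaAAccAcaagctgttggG
Each is read on the minus strand. The 2 lysozyme windows differed at 21 of 100 bases (79.0% identical without gaps), and over the 250 bases before the start they differed at 98 (60.8% identical).

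Per transcript length, Lyz2 was far above the other 7 genes in every group. Its level was 6830 ± 759 TPM (SD, n = 4) in CD CD45hi cells, 6690 ± 607 TPM (n = 3) in WD CD45hi cells, 1020 ± 295 TPM (n = 4) in CD CD45lo cells and 993 ± 370 TPM (n = 4) in WD CD45lo cells. TPM, the length-scaled transcript abundance that the authors deposited, is the scale used here to compare genes. Lyz2 ranked 8 to 10 among all genes in the CD45hi libraries and 44 to 160 in the CD45lo libraries. In CD CD45hi cells the next 6 genes, from Cd177 at 42.2 ± 35.0 TPM through Hp at 39.6 ± 32.3 TPM, Plac8 at 36.1 ± 17.7 TPM, Ly6c2 at 31.5 ± 14.0 TPM and Fn1 at 30.5 ± 11.8 TPM to Lyz1 at 17.1 ± 16.1 TPM, had overlapping ranges from one to the next. Vcan was the lowest at 3.61 ± 2.46 TPM, and its range overlapped that of Lyz1. In WD CD45hi cells Plac8 came next to Lyz2 at 86.4 ± 28.0 TPM, and its lowest library, at 59.7 TPM, was above the highest Hp library, at 43.5 TPM. Hp, Ly6c2 and Fn1 followed with overlapping ranges and means of 24.0, 17.5 and 17.0 TPM. Cd177, Lyz1 and Vcan came last with means of 3.36, 2.34 and 2.12 TPM.

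**Figure D1:**
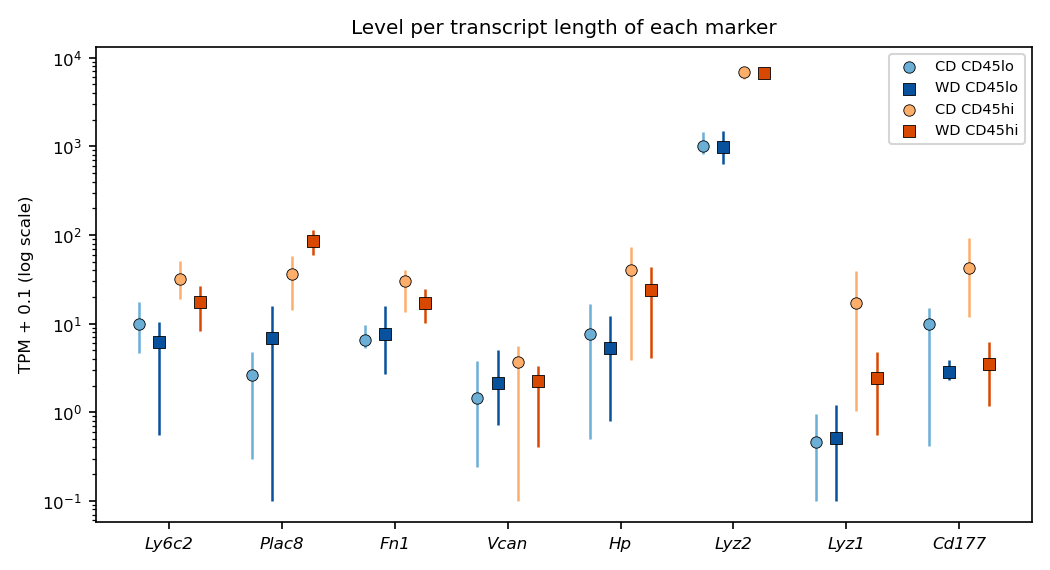
Level per transcript length (TPM + 0.1, log axis) of each gene by group, with markers at the group mean and lines from the lowest to the highest library (3 or 4 libraries a group). Lyz2 sits above the other genes in all 4 groups, and Plac8 has its highest mean in WD CD45hi cells and Cd177 in CD CD45hi cells.

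The first comparison asked which markers set CD11b+CD45hi cells apart from CD11b+CD45lo cells on each diet. All 8 genes had a higher fitted level in CD45hi cells on both diets, with a median log2 fold change of 2.77 in CD-fed and 2.44 in WD-fed mice, where the medians of all genes tested were 0.04 and 0.00. Past a 1.5-fold change at an FDR under 0.05 (edgeR glmTreat), 4 of 8 were called higher in CD-fed mice (Plac8, Fn1, Lyz2 and Lyz1), where 3.39% of all genes were. In WD-fed mice 2 of 8 were called higher (Plac8 and Lyz2), where 4.01% of all genes were. The lowest CD45hi library was above the highest CD45lo library for 6 of 8 genes in CD-fed mice (all but Vcan and Hp; 8.26% of all genes) and for 3 of 8 in WD-fed mice (Ly6c2, Plac8 and Lyz2; 10% of all genes). None of the 8 was called lower on either diet, where 0.588% (CD) and 1.17% (WD) of all genes were. Without the CD45hi libraries that stood apart, 3 of 8 were called in CD-fed and 1 of 8 in WD-fed mice. Of all genes, 503 (CD) and 681 (WD) were then called higher.

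**Figure D2:**
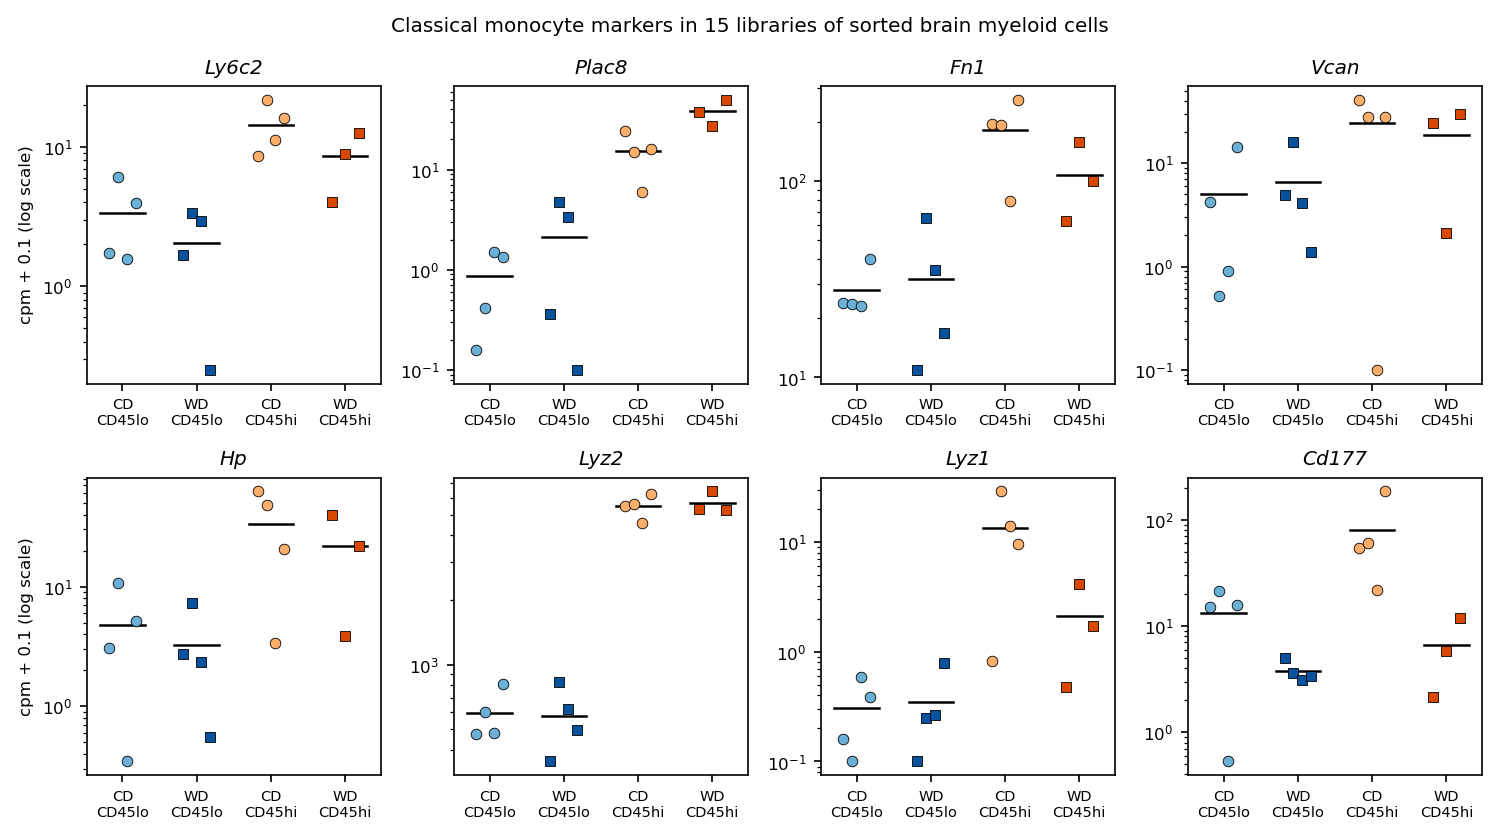
TMM-normalized cpm + 0.1 (log axis, one panel per gene) in each of the 15 libraries, with horizontal lines at group means. Lyz2 separates the cell types most tightly, at 4576 to 6440 cpm in CD45hi and 353.6 to 827.8 cpm in CD45lo libraries, and all 7 CD45hi libraries are above all 8 CD45lo libraries for Lyz2 and Plac8 only. Over both diets, the other 6 genes each have CD45hi libraries at or below the highest CD45lo library, as all 3 WD CD45hi libraries are for Cd177.

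Lyz2, the lysozyme of the monocyte lineage, had the smallest relative spread of the 8 in CD45hi cells. Its level was 5481, 5622, 4576 and 6241 cpm in the 4 CD CD45hi libraries and 5308, 6440 and 5261 cpm in the 3 WD CD45hi libraries. The CD CD45lo libraries held 473.5, 604.6, 481.5 and 811.0 cpm and the WD CD45lo libraries 353.6, 827.8, 617.9 and 494.4 cpm. The cell types therefore did not overlap, and the highest of the CD45hi libraries on a diet was at most 1.36 times the lowest. The fitted differences were 9.25-fold in CD-fed mice (95% interval of the log2 fold change 2.72 to 3.69, FDR = 3.3e-07) and 9.89-fold in WD-fed mice (2.80 to 3.81, FDR = 5.4e-07).

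Lyz1, the neighbouring lysozyme gene, was at most 0.513% of the counts of the pair. Its level was 0.721, 29.0, 14.0 and 9.53 cpm in the CD CD45hi libraries and 0.376, 4.03 and 1.61 cpm in the WD CD45hi libraries. In CD45lo cells it was 0.682 cpm or less in all 8 libraries, and 2 of them had no count. Replicate 1 of CD CD45hi was thus close to the CD45lo libraries, while the other 3 were far above them. The log2 fold change between cell types was 5.95 ± 1.44 (SE) in CD-fed mice (FDR = 0.0248) and 2.99 ± 1.33 in WD-fed mice (FDR = 0.258). Among the CD CD45hi libraries Lyz1 spanned 40.2-fold and Lyz2 1.36-fold, and the share of Lyz1 in the pair was 0.0133% to 0.513%. How the shared reads were divided between the pair was not tested. The call in CD-fed mice was lost without CD CD45hi replicate 2 (FDR = 0.0682) or without CD CD45lo replicate 1, 2 or 4 (FDR = 0.0962, 0.0725 and 0.0776).

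Plac8 had the largest log2 fold change called on both diets. It was at 24.2, 14.8, 5.89 and 16.1 cpm in CD CD45hi and 37.4, 27.2 and 49.9 cpm in WD CD45hi libraries. In CD CD45lo libraries it was at 0.0588, 0.311, 1.41 and 1.25 cpm, and in WD CD45lo libraries at 0.262, 4.60, 3.24 and 0 cpm. All 7 CD45hi libraries were above all 8 CD45lo libraries. The log2 fold change was 4.32 ± 1.11 in CD-fed mice (95% interval 1.97 to 6.67, FDR = 0.0397) and 4.23 ± 1.13 in WD-fed mice (1.85 to 6.60, FDR = 0.0409). Both calls were near the threshold: without the 2 CD45hi libraries that stood apart the FDR was 0.0622 and 0.0535, with log2 fold changes of 4.30 and 4.24. The CD call was also lost without CD CD45hi replicate 1, 2 or 4, without any one CD CD45lo replicate or without WD CD45lo replicate 3 (FDR up to 0.136). The WD call was also lost without CD CD45lo replicate 2 or 4, WD CD45hi replicate 1 or 3, or WD CD45lo replicate 1, 3 or 4 (FDR up to 0.110).

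Ly6c2, which carries the antigen that defines these monocytes in flow cytometry, was at low levels in both cell types. It was at 8.52, 21.8, 11.2 and 16.0 cpm in CD CD45hi and 3.95, 8.86 and 12.6 cpm in WD CD45hi libraries. The CD CD45lo libraries held 1.65, 6.02, 1.48 and 3.86 cpm and the WD CD45lo libraries 1.57, 3.27, 2.86 and 0.152 cpm. The cell types did not overlap within either diet. The log2 fold changes of 2.14 ± 0.778 in CD-fed mice (95% interval 0.50 to 3.78, FDR = 0.214) and 2.10 ± 0.817 in WD-fed mice (0.38 to 3.83, FDR = 0.208) did not pass the test against a 1.5-fold change. Its near copy Ly6c1 was at 0.129 to 8.11 cpm in CD CD45hi, 0 to 0.671 cpm in WD CD45hi and 0.529 to 5.16 cpm in CD45lo libraries. Ly6c1 thus made up 0% to 27.3% of the counts of the pair in CD45hi libraries and 22.8% to 89.5% in CD45lo libraries.

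Fn1 and Vcan, the matrix genes, differed in how closely their replicates agreed. Fn1 was at 195.6, 192.7, 79.1 and 260.7 cpm in CD CD45hi libraries and 23.9, 23.6, 23.1 and 40.1 cpm in CD CD45lo libraries, with a log2 fold change of 2.72 ± 0.496 (95% interval 1.67 to 3.76, FDR = 0.00541). In WD-fed mice it was at 62.5, 157.8 and 100.5 cpm in CD45hi and 10.8, 64.7, 35.1 and 16.7 cpm in CD45lo libraries. CD45lo replicate 2 lay just above the lowest CD45hi library, and the log2 fold change of 1.75 ± 0.504 was not called (FDR = 0.102). Without that CD45lo library it was 2.36 (FDR = 0.0188). Vcan was at 41.0, 27.5, 0 and 28.0 cpm in CD CD45hi and 24.2, 2.01 and 29.6 cpm in WD CD45hi libraries, and at 0.415 to 15.7 cpm in CD45lo libraries. CD CD45hi replicate 3 had no Vcan count, although Lyz2 was at 4576 cpm in the same library. The log2 fold changes of Vcan were 2.3 ± 1.28 (FDR = 0.532) in CD-fed and 1.52 ± 1.32 (FDR = 0.682) in WD-fed mice, with 95% intervals that held 0 on both diets.

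Hp and Cd177, which neutrophils also make, spread widely. Hp was at 62.8, 47.5, 3.26 and 20.3 cpm in CD CD45hi and 39.3, 3.76 and 21.6 cpm in WD CD45hi libraries, and at 0.246 to 10.6 cpm in CD45lo libraries. CD replicate 3 and WD replicate 2, the CD45hi libraries with the least Vcan, also had the least Hp. The log2 fold changes of Hp were 2.82 ± 1.04 (FDR = 0.201) in CD-fed and 2.78 ± 1.08 (FDR = 0.193) in WD-fed mice. Cd177 was at 54.3, 60.3, 21.8 and 186.6 cpm in CD CD45hi libraries and at 15, 21.1, 0.430 and 15.7 cpm in CD CD45lo libraries, which it just cleared. The log2 fold change in CD-fed mice was 2.63 ± 0.816 (95% interval 0.91 to 4.35, FDR = 0.118), and without the library that stood apart, CD replicate 4, it was 1.80 (FDR = 0.395). In WD-fed mice Cd177 was at 2.07, 5.77 and 11.7 cpm in CD45hi and 4.85, 3.49, 3.02 and 3.26 cpm in CD45lo libraries, with a log2 fold change of 0.84 ± 0.844 (FDR = 0.770).

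**Figure D3:**
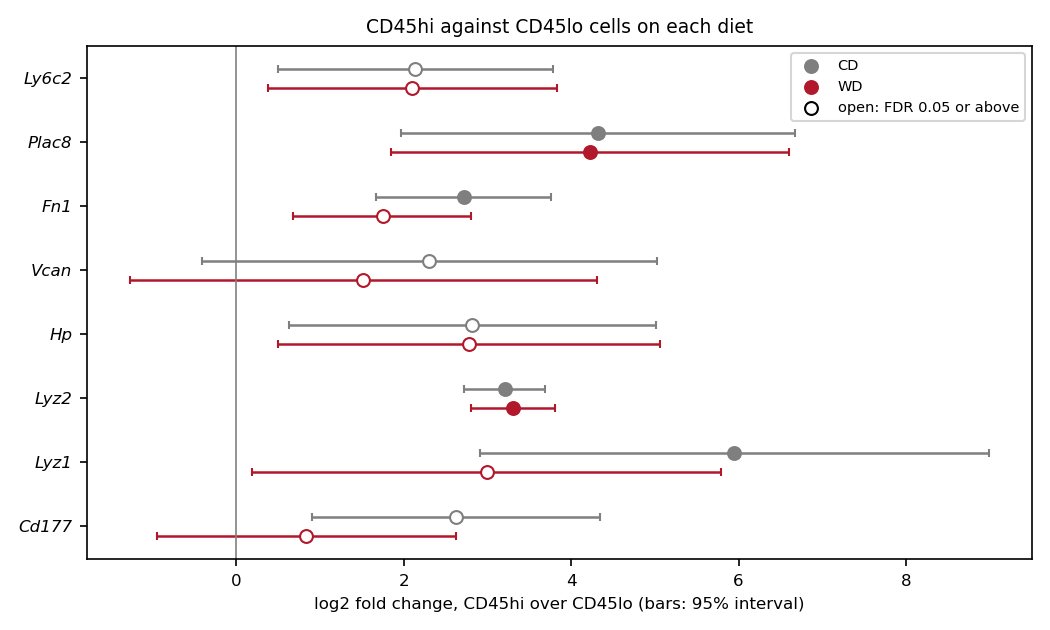
Log2 fold change of CD45hi over CD45lo cells for each gene (x axis), with bars for the 95% interval, in CD-fed (grey) and WD-fed (red) mice; filled markers passed the test against a 1.5-fold change. All 16 values are above 0, from 0.84 for Cd177 in WD-fed mice to 5.95 for Lyz1 in CD-fed mice, and 6 are filled.

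Other tests changed how many of the 8 were called, but not the direction of any. DESeq2, tested for any change with the 1.5-fold limit set afterwards, called 7 of 8 genes in CD-fed and 5 of 8 in WD-fed mice. Of all genes it called 1257 (CD) and 1403 (WD) higher. The edgeR 4 form of the quasi-likelihood test, against the 1.5-fold change, called 7 of 8 in CD-fed mice, where it called 693 of all genes higher. On the TPM scale the ratios between cell types were lower, as they were for all genes by a median of 0.45 (CD) and 0.54 (WD) on the log2 scale. The log2 ratio of mean Vcan in WD-fed mice fell by more than that median, from 1.52 in cpm to 0.06 in TPM.

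Whether the WD changed these markers was asked within each cell type. In CD45hi cells, 0 of 8 were called by edgeR glmQLFTest at an FDR under 0.05, where 0.254% of all genes were and 2628 genes had an unadjusted p under 0.05. None of the 8 except Cd177 had an unadjusted p under 0.05. DESeq2 and the edgeR 4 form each called 1 of 8, Cd177, where they called 1030 and 252 of all genes. Fitted levels were lower in WD-fed mice for 6 of 8, with a median log2 fold change of -0.70 where that of all genes was -0.02. Plac8 was the only gene of the 8 with all WD libraries above all CD libraries (2.58% of all genes) and Cd177 the only one with all below (3.19% of all genes).

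Cd177 had the largest difference between diets. The WD CD45hi libraries held 2.07 to 11.7 cpm and the CD CD45hi libraries 21.8 to 186.6 cpm, so the groups did not overlap. The log2 fold change was -3.63 ± 0.964 (95% interval -5.66 to -1.59, unadjusted p = 0.00157 by the quasi-likelihood test of edgeR, FDR = 0.0947). With each library left out in turn it stayed between -4.35 and -2.80 (FDR = 0.0656 to 0.141), and without both CD45hi libraries that stood apart it was -2.38 (FDR = 0.187). Over the 10 other settings tried the FDR ran from 0.000525 (DESeq2) to 0.785 (only the 2 groups compared). It was 0.0285 with the edgeR 4 form and 0.197 with limma-voom, and DESeq2 and the edgeR 4 form were the settings that called it. In CD45lo cells the log2 fold change of Cd177 was -1.84 ± 0.804 (95% interval -3.53 to -0.14, FDR = 1), with 3.02 to 4.85 cpm in WD and 0.430 to 21.1 cpm in CD libraries. The difference between the 2 diet effects was -1.79 ± 1.17 (95% interval -4.25 to 0.67, FDR = 0.652 for the interaction).

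Plac8 was the opposite case. It was at 27.2 to 49.9 cpm in WD CD45hi and 5.89 to 24.2 cpm in CD CD45hi libraries, with a log2 fold change of 1.32 ± 1.03 (95% interval -0.85 to 3.49, FDR = 0.538). In CD45lo cells the log2 fold change was 1.41 ± 1.02 (FDR = 1), with overlapping libraries at 4.60 cpm or less. Lyz1 had a log2 fold change of -2.72 ± 1.37 in CD45hi cells (95% interval -5.62 to 0.18, FDR = 0.316), with overlap through CD replicate 1. The remaining 5 genes lay between -0.77 and 0.05 in CD45hi cells, and all their libraries overlapped between diets. The narrowest of these intervals was that of Lyz2, whose log2 fold change was 0.05 with an interval from -0.43 to 0.53. For Ly6c2 the interval ran from -2.49 to 0.97 and for Vcan from -3.19 to 2.43. With 3 and 4 libraries, decreases of several fold in either gene, and such increases in Vcan, thus lay within these intervals.

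In CD45lo cells 0 of 8 were called, where 0% of all genes were and 123 genes had an unadjusted p under 0.05. DESeq2 also called 0 of 8, and 4 of all genes. Of the 8, Cd177 had an unadjusted p under 0.05 (0.0357 by the quasi-likelihood test of edgeR). All 8 overlapped between diets, where 2.42% of all genes did not. In the interaction of diet and cell type 0 of 8 were called by edgeR and by DESeq2. Of all genes, 0.00668% were called by edgeR, and DESeq2 called 188 genes. With edgeR 1515 genes had an unadjusted p under 0.05, none of them among the 8. The largest interaction was that of Lyz1, -2.96 ± 1.84 (FDR = 0.633). A gene called between cell types on one diet only, such as Fn1 or Lyz1, was therefore not shown to differ between diets.

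**Figure D4:**
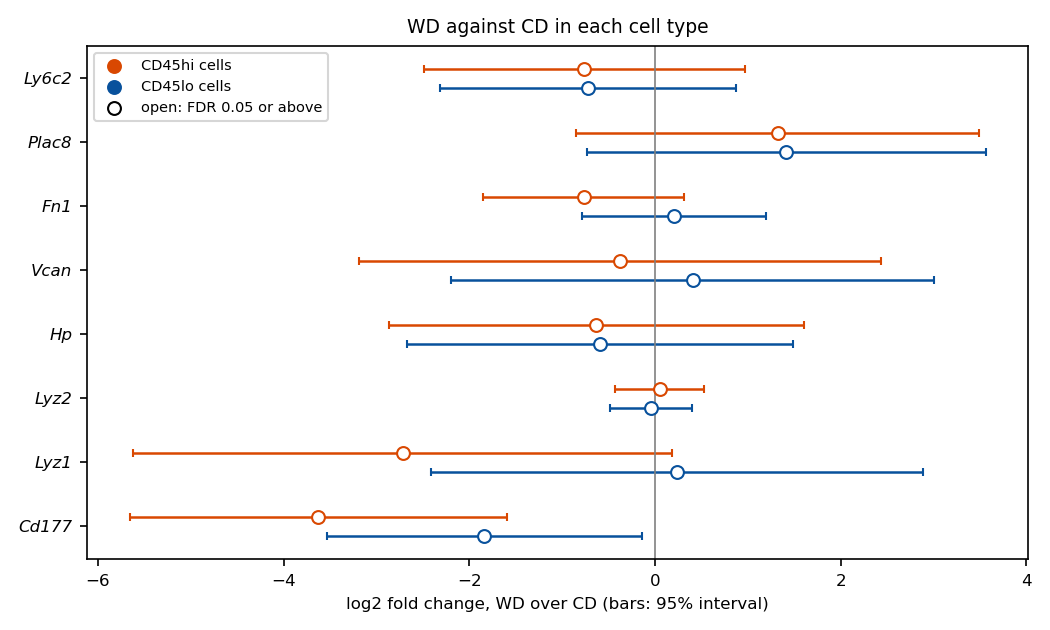
Log2 fold change of WD over CD for each gene (x axis), with bars for the 95% interval, in CD45hi (orange) and CD45lo (blue) cells; open markers did not pass an FDR of 0.05. No marker is filled, and only the intervals of Cd177 leave out 0, at -5.66 to -1.59 in CD45hi and -3.53 to -0.14 in CD45lo cells.

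Other genes of classical monocytes were examined beside the 8. Of 16 such genes, chosen with earlier results of these data known, 12 were called higher in CD45hi cells on each diet and none lower. Of all genes, 3.39% (CD) and 4.01% (WD) were called higher. The median log2 fold changes of the 16 were 3.46 and 3.40. The highest in CD45hi cells were Ccr2, the receptor through which classical monocytes leave the bone marrow, and Ifitm3, an interferon-induced membrane protein. Ccr2 was at 373 ± 165 cpm in CD CD45hi (n = 4) and 15.9 ± 11.6 cpm in CD CD45lo cells (n = 4), a log2 fold change of 4.55 ± 0.515 (FDR = 3.99e-05). In WD-fed mice Ccr2 was at 271 ± 45.7 cpm in CD45hi (n = 3) and 20.3 ± 12.6 cpm in CD45lo cells (n = 4), a log2 fold change of 3.73 ± 0.510 (FDR = 3e-04). Ifitm3 had log2 fold changes of 3.79 and 4.10. Ly6c1, also in that list, had a log2 fold change of 0.83 ± 1.2 in CD-fed and -2.89 ± 1.45 in WD-fed mice, neither called (FDR = 0.970 and 0.330). None of the 16 was called between diets in either cell type.

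Of 8 transcription factors of the monocyte lineage, 1 was called higher in CD45hi cells on both diets, where 3.39% (CD) and 4.01% (WD) of all genes were. The 1 called was Cebpb, named here after its values were seen, with log2 fold changes of 2.54 (FDR = 0.00485) and 2.18 (FDR = 0.0194). Zeb2 and Runx1, the most highly expressed, had log2 fold changes of 0.40 and 0.05 in CD-fed and 0.62 and 0.28 in WD-fed mice, none called. Spi1, which encodes PU.1, was not called either, at 0.93 ± 0.358 in CD-fed (FDR = 0.427) and -0.26 ± 0.386 in WD-fed mice (FDR = 0.942). Among 10 tested binding partners of the marker proteins, 4 were called higher in CD-fed mice (3.39% of all genes). In WD-fed mice 5 were called higher and 1 lower (4.01% and 1.17% of all genes). The leading ones were Itga4, an integrin chain that binds fibronectin, and Cd44, the hyaluronan receptor. Itga4 was at 370 ± 84.6 cpm in CD CD45hi and 18.4 ± 8.75 cpm in CD CD45lo cells (log2 fold change 4.33 in CD-fed and 4.51 in WD-fed mice, FDR = 8.5e-07 and 9.31e-07). Cd44 had log2 fold changes of 4.47 and 4.97. The others called, named after their values were seen, were Cd163, the receptor for haptoglobin-haemoglobin complexes (3.85 and 3.97), and Hmox1, which degrades haem (1.67 and 1.76), on both diets. In WD-fed mice Tlr2, a receptor of bacterial lipoproteins, was also called (1.48), and Itgb3, a beta integrin chain of fibronectin receptors, was called lower (-1.47).

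Markers of other cells that the CD45hi gate could hold were examined in the same comparisons, since several of the 8 genes are also made by neutrophils or macrophages. Called higher in CD45hi cells were 7 of 9 neutrophil markers, 7 of 9 nonclassical monocyte markers and all 8 border-associated macrophage markers on each diet. Of all genes, 3.39% (CD) and 4.01% (WD) were called higher. Of 7 dendritic cell markers, 1 was called higher on each diet, and of 7 tested markers of T, NK and B cells 2 (CD) and 4 (WD) were, although the CD3e gate removes T cells. None of 8 tested genes of neutrophil precursors and granules was called on either diet. The neutrophil markers summed to 1713 to 3742 cpm in CD CD45hi, 1431 to 1905 cpm in WD CD45hi and 579.8 to 856.5 cpm in CD45lo libraries. Most of the CD45lo sums was Csf3r, at 551 ± 65.5 cpm in CD CD45lo and 684 ± 87.9 cpm in WD CD45lo cells (n = 4 each). Csf3r was at 730 ± 135 cpm in CD CD45hi and 649 ± 59.2 cpm in WD CD45hi cells. Its log2 fold changes between cell types were 0.40 (CD) and -0.07 (WD), neither called, so the sums understate the contrast of the other neutrophil markers. S100a9, an abundant neutrophil protein that classical monocytes also carry, was at 947 ± 375 cpm (n = 4) in CD CD45hi and 400 ± 177 cpm (n = 3) in WD CD45hi cells. Between diets in CD45hi cells all 9 neutrophil markers and all 8 tested precursor and granule genes had a log2 fold change below 0, with medians of -0.98 and -1.42 and none called. The nonclassical monocyte markers summed to 609.1 to 1008 cpm in WD and 379.7 to 713.2 cpm in CD CD45hi libraries. The border-associated macrophage markers summed to 2132 to 2231 cpm in CD CD45hi libraries but 833.6 cpm in WD replicate 1, against 2032 and 2888 cpm in the other 2 WD libraries. Some genes stood in more than one list (F13a1, Cd163, Ly6c1, Chil3, Prtn3 and Pecam1). The part of these cells in the values of the 8 genes was not tested.

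**Figure D5:**
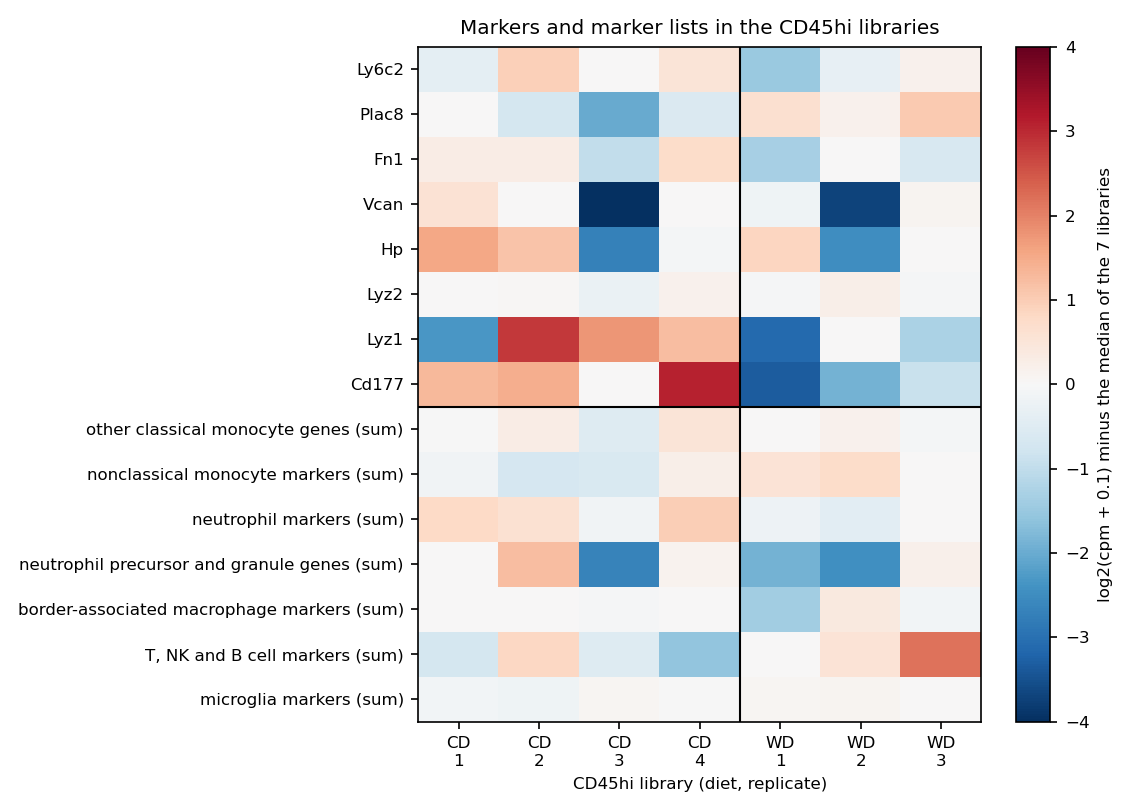
The 8 genes (above the line) and the summed cpm of marker lists (below it) in the 7 CD45hi libraries (columns, CD to the left of the line), coloured by log2(cpm + 0.1) minus the median of the 7 libraries, with colours ending at ±4. Lyz2 and the microglia markers are nearly even, Cd177 is lower in all 3 WD libraries, Plac8 higher in all 3, and Vcan and Hp are lowest in CD replicate 3 and WD replicate 2.

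The order of the 7 CD45hi libraries by Cd177 was close to their order by the sum of neutrophil markers, with no library more than 1 place apart. These orders were compared after the values were seen. Because Cd177 did not overlap between diets, part of such a likeness can be the diet difference itself. The sums were 3292, 2931, 1713 and 3742 cpm in the CD libraries and 1637, 1431 and 1905 cpm in the WD libraries, and CD replicate 4 was the highest in both. The precursor and granule genes summed to 928.6, 2178, 145.3 and 1015 cpm in the CD libraries and 250.5, 170.2 and 1060 cpm in the WD libraries. That order differed from the order by Cd177, with CD replicate 3 the lowest and WD replicate 3 above CD replicates 1 and 4. The part of neutrophils in the Cd177 values was not tested. Ly6g, the antigen that defines mouse neutrophils in flow cytometry, had no count in 3 of the 7 CD45hi libraries and was at 7.34 cpm or less in the others, while the other 8 neutrophil markers were above 0 in all 7. Of the precursor and granule genes, Ctsg, Elane and Mpo had no count in 6, 5 and 2 of the 7 CD45hi libraries. These genes are named after their values were seen. The remaining lists, of endothelial, fibroblast and mural, oligodendrocyte lineage, neuron and astrocyte, and red blood cell markers, had at most 1 gene called in either direction between cell types on a diet, with sums of at most 131.5 cpm in any library.

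Among themselves, the 8 genes did not vary as one set. After each group's mean was subtracted, Pearson's r of log2 cpm over the 15 libraries was 0.89 for Fn1 and Lyz2, 0.70 for Vcan and Hp, 0.68 for Plac8 and Fn1, and 0.60 for Ly6c2 and Plac8. For Lyz1 it lay between -0.59 (with Hp) and 0.14 (with Lyz2), and for the neighbouring lysozymes it was thus 0.14. Cd177 had its highest value with Hp, at 0.55, and -0.16 with Plac8. These are descriptions over libraries that share their sorts and depth. Among 8253 genes with a mean of at least 10 cpm, the 3 most similar to Ly6c2 were F13a1, Tnfsf13 and Apobr (r = 0.84, 0.84 and 0.82), and to Plac8 Sirpb1c, Fxyd5 and Tgfbi (0.92, 0.87 and 0.86). For Fn1 they were Ciita, Lyz2 and Iqgap2 (0.94, 0.89 and 0.85), and for Lyz2 Ifi203, Fn1 and S100a4 (each 0.89). Hp was most like C3, Camp and Dock5 (0.87, 0.83 and 0.82). Cd177 was most like L1cam, Pygl and F5 (0.83, 0.82 and 0.82), Vcan like Jak2 and Sms (0.90 and 0.89) and Lyz1 like Lonp2, Zfp451 and Zscan12 (0.96, 0.92 and 0.89). These values were picked as the highest among 8253 genes over 15 libraries, so they are large in part through that choice, and they were not tested.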

How the data were processed

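Reads were 75 bp paired-end from poly(A) TruSeq libraries. The authors trimmed them, aligned them with Bowtie2 through RSEM 1.2.12 to mm10, and deposited an expected count (estimated, not normalized) and a TPM value (abundance scaled to transcript length and library) per gene and library. Annotation release and strand setting are not given in the sources used here, and libraries could not be assigned to a sequencing platform.

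Expected counts were rounded. The 14967 genes (of 38924) that reached 1 cpm in 2 or more libraries were kept, normalized by TMM and fitted together in 4 groups with edgeR 4.0.16 (R 4.3.3), in the earlier quasi-likelihood form. Cell types were compared with glmTreat at 1.5-fold, and diets and the interaction with glmQLFTest, with Benjamini-Hochberg adjustment over all genes tested and a threshold of 0.05. The SE is the log2 fold change divided by the square root of F, and intervals are 95%. Values in cpm are TMM-normalized. The scripts were tested on simulated data.

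The 8 genes and 15 marker lists were chosen with earlier results of these data known. Named genes were the 8 members, the 2 genes of a list with the highest mean cpm in CD45hi cells (given where a result turns on them), near copies, and, per member, the 3 genes with the highest r of residual log2 cpm (prior count 2). Others are marked in the text, and 1 gene that this rule names is not reported here.

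Alternatives were DESeq2 1.42.0, limma-voom (limma 3.58.1), DESeq2 size factors, other tests of the fold limit, other filters, the compared groups alone, the edgeR 4 form, unrounded counts, replicate blocks, TPM, and leaving out each library or the 2 that stood apart. DESeq2 and limma-voom tested for any change, and between cell types the 1.5-fold limit was set afterwards on their estimates.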

Additional observations from a re-analysis of the deposited data

Results flagged for a closer look

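Of 24 combinations of gene and group with 4 libraries, 1 had a library far from the others by Dixon's test at the 95% level, about as many as chance gives (1 in 20). Fn1 in CD CD45lo replicate 4 was at 40.1 cpm, whereas the other 3 CD CD45lo libraries were at 23.1 to 23.9 cpm. Without that library the log2 fold change of Fn1 between cell types in CD-fed mice is within the leave-one-out range of 2.49 to 2.97, and the call was kept in each of these fits.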

How the results depend on the processing

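Between cell types, all 16 log2 fold changes of the 8 genes kept their direction under every alternative, and Lyz2 on both diets and Fn1 in CD-fed mice kept their calls. The number called in CD-fed mice, 4, became 7 with DESeq2, where the 1.5-fold limit was set afterwards. It became 7 with the edgeR 4 form and 2 to 4 with a library left out. With limma-voom, Ly6c2 and Cd177 (FDR = 0.0351) were called in CD-fed mice beside the 4. The number in WD-fed mice, 2, became 5 with DESeq2, 1 with only the 2 groups compared, 1 without the CD45hi libraries that stood apart, and 1 to 3 with a library left out. Between diets in CD45hi cells the 0 called became 1 (Cd177) with DESeq2 and 1 with the edgeR 4 form. For CD45lo cells and the interaction it stayed 0 in the alternatives run, and with a library left out it was 0 to 0 in all 3. Over all genes, the 595 calls between cell types in CD-fed mice became 1162 with edgeR and the 1.5-fold limit set afterwards. With DESeq2 and limma-voom, which also had the limit set afterwards, they became 1794 and 1508. The 775 calls in WD-fed mice became 1335 with edgeR and that limit, 2296 with DESeq2 and 1517 with limma-voom. The 38 calls between diets in CD45hi cells became 1030 with DESeq2, 252 with the edgeR 4 form, 71 with the stricter filter, 290 without both libraries that stood apart, 1 with glmTreat and 0 with only the 2 groups compared, and 1 to 286 with a library left out. The 0 calls in CD45lo cells became 4 with DESeq2, and the 1 of the interaction became 188 with DESeq2, 3 without both libraries that stood apart and 0 with limma-voom, with the edgeR 4 form and with a block. Of the calls between cell types, 85.2% were higher in CD45hi cells in CD-fed mice (77.4% in WD-fed mice). With the limit set afterwards the share was 75.1% (68.8%) with edgeR, 70.1% (61.1%) with DESeq2 and 58.1% (58.4%) with limma-voom. With limma-voom the median over all genes tested shifted to -0.222 (CD) and -0.265 (WD) on the log2 scale, and the 16 values of the 8 genes stayed above it.

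Directions between diets turned, without a call on either side, for Vcan in CD45hi cells (0.45 with limma-voom) and Fn1 in CD45lo cells (-0.085 with limma-voom). In the interaction they turned for Ly6c2 (0.33 with limma-voom, 0.022 with the edgeR 4 form, 0.36 without both libraries that stood apart) and Plac8 (0.91 with limma-voom). With a library left out, ranges that held both signs were, in CD45hi cells, -0.88 to 0.16 for Vcan and -0.052 to 0.117 for Lyz2. In CD45lo cells they were -0.40 to 0.49 for Fn1, -0.53 to 1.86 for Vcan, -1.40 to 0.18 for Hp, -0.28 to 0.14 for Lyz2 and -0.92 to 1.06 for Lyz1. In the interaction they were -0.51 to 0.32 for Ly6c2, -0.57 to 0.68 for Plac8, -2.24 to 0.15 for Vcan, -0.81 to 0.77 for Hp and -0.093 to 0.327 for Lyz2. The cause of these changes was not tested.

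Whether same-numbered CD45hi and CD45lo libraries came from the same mouse is not given in the labels. The correlation of their deviations from the group means was 0.01 to 0.07 in the 4 CD pairs (mean 0.037) and -0.022 to -0.004 in the 3 WD pairs (mean -0.013). Between libraries with different numbers it was -0.052 to 0.046 in CD-fed (mean -0.012) and -0.017 to 0.013 in WD-fed mice (mean 0.004). Same-numbered libraries were thus slightly more alike on average in CD-fed mice only. All values were under 0.1, and the main fit did not treat the libraries as pairs, but such values do not show that they are unpaired. With the replicate block by sample titles 2 genes were called in CD-fed mice (Plac8 FDR = 0.056 and Lyz1 FDR = 0.0646 lost) and 2 in WD-fed mice (Plac8 FDR = 0.12 lost, Fn1 FDR = 0.0404 gained), and the 775 calls over all genes in WD-fed mice became 398 (353 with file numbers). With the block by file numbers 2 and 1 were called, and in the interaction the log2 values of Ly6c2 (0.016) and Lyz2 (-0.077) turned. Between diets no paired analysis was possible because mice on different diets are different animals. On the TPM scale the log2 ratios of mean Lyz2 were 2.74 and 2.75. Depth limits Lyz1 and Plac8 most, with at most 3 counts in 4 and 2 libraries.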
